A study of Mus musculus with 7 samples.

Results

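The integrin and laminin genes of mouse mesothelial cells were followed from culture into pancreatic tumours. The genes were chosen by their symbols and not by their values, as every protein-coding gene named as an integrin alpha or beta chain or as a laminin alpha, beta or gamma chain. Earlier results of these data were known when this choice was made. This gave 37 genes of 21995 protein-coding genes in the count table, of which 26 encode integrins (18 alpha and 8 beta chains) and 11 encode laminins (5 alpha, 3 beta and 3 gamma chains). RNA sequencing had been done on 7 libraries of PanMeso cells, which are mesothelial cells derived from mouse pancreas that express enhanced green fluorescent protein (eGFP). The parental group (n = 3) is the cultured line. The BMFA3 group (n = 2) and the CT1BA5 group (n = 2) are eGFP-positive PanMeso cells recovered by flow sorting from tumours that grew after the line was injected into the pancreas together with BMFA3 or CT1BA5 pancreatic cancer cells. All groups go back to the same line and carry the same reporter; it was kept at 33 °C with 3.3 nM epidermal growth factor, 400 nM hydrocortisone and 870 nM insulin, and moved to 37 °C for 3 days before an experiment. The labels name no host strain and do not state if each replicate had its own culture or tumour, so p-values measure only the spread between these samples, which may be technical. Growth in a tumour, tissue dissociation and sorting come together in the sorted groups, and their effects cannot be told apart. No library here is of the cancer cells themselves. Below, BMFA3 and CT1BA5 cells, or the lines, are the sorted PanMeso cells of these groups.

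Integrins are cell surface receptors made of 1 alpha and 1 beta chain, which bind matrix proteins outside the cell and, through talin and kindlin, the actin cytoskeleton inside it. The pairing sets the ligand: alpha5 with beta1 binds fibronectin, alphav chains bind vitronectin, osteopontin and latent TGF-beta at an RGD motif, alpha3, alpha6 and alpha7 bind laminins, and alpha1, alpha2, alpha10 and alpha11 bind collagens. Laminins are trimers of an alpha, a beta and a gamma chain that polymerise into the sheet of a basement membrane, and the mesothelium rests on such a membrane.

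The libraries held 10096839 to 19210598 counts, and replicates correlated at r = 0.992 to 0.995 across genes. The spread between the CT1BA5 libraries was 4.69 times the variance of sampling, against 2.19 to 3.12 times in the other replicate pairs. Each of 13 mesothelial markers was detected in the parental group, and their summed level was 12031 to 13236 CPM (counts scaled to a common TMM-adjusted library size) in parental, 2126 to 2130.1 CPM in BMFA3 and 955 to 977 CPM in CT1BA5 libraries. The single markers did not all follow this sum. Against parental cells all 13 were called lower in CT1BA5 cells, and 11 in BMFA3 cells. Wt1 and Bnc1 were not called in BMFA3 cells (adjusted p = 0.773 and 0.96 by edgeR). Wt1 averaged 252 CPM in parental, 257 CPM in BMFA3 and 118 CPM in CT1BA5 libraries. Bnc1 averaged 127, 127 and 64.5 CPM in the same order. Between the sorted groups, 10 of the markers were called lower and 2 higher in CT1BA5 than in BMFA3 cells. The higher ones were Krt7 (7.47 CPM in BMFA3 and 11.5 CPM in CT1BA5 libraries) and Krt8 (102 and 120 CPM). Of 14 leukocyte markers, Ptprc, Tyrobp, Cd3e, S100a9 and Cd52 had 0 counts in every library, and the summed level was 12.7 to 15.6 CPM in parental, 25.1 to 29.2 CPM in BMFA3 and 21 to 22.4 CPM in CT1BA5 libraries. Of 11 tumour epithelial markers, Tff1, Tff2, Muc5ac and Esrp1 had 0 counts, and the sum was 10.0 to 14.6, 9.21 to 11.4 and 6.15 to 6.46 CPM in the same order. Cdh1 carried the fall of that sum (11.6 ± 2.85 CPM in parental, 7.08 ± 1.02 CPM in BMFA3 and 0.466 ± 0.439 CPM in CT1BA5 libraries). Krt20 was called higher in both lines (0.694 ± 0.359 CPM in parental, 1.55 ± 0.0422 CPM in BMFA3 and 4.23 ± 0.852 CPM in CT1BA5 libraries), Muc1 higher in BMFA3 cells (0.438 ± 0.0853 CPM in parental, 1.36 ± 0.143 CPM in BMFA3 and 0.337 ± 0.256 CPM in CT1BA5 libraries) and Cldn4 higher in CT1BA5 cells (0.0491 ± 0.0850 CPM in parental, 0.0305 ± 0.0431 CPM in BMFA3 and 0.920 ± 0.0203 CPM in CT1BA5 libraries). Of 10 endothelial markers, Tie1 and Cldn5 had 0 counts and Kdr made up most of a sum of 97.6 to 108, 27.7 to 28.8 and 21.3 to 25.1 CPM. Kdr was called lower in both lines against parental cells. Egfl7, the only other tested marker of this list, was called higher in both (2.11 ± 0.969 CPM in parental, 4.03 ± 0.0154 CPM in BMFA3 and 8.26 ± 3.63 CPM in CT1BA5 libraries). Of 7 pericyte and stellate markers, Abcc9 had 0 counts and the sum was 89.5 to 98.7, 94.5 to 96.9 and 136 to 161 CPM. The single markers of this list did not all follow its sum. Against parental cells Des and Rgs5 were called higher in both lines. Des averaged 7.17 CPM in parental, 18.3 CPM in BMFA3 and 22.3 CPM in CT1BA5 libraries. Rgs5 averaged 0.138, 1.52 and 1.54 CPM in the same order. Mcam was called lower in BMFA3 and higher in CT1BA5 cells, and Cspg4 and Notch3 were called higher in CT1BA5 cells only. The part of other cells in the results below was not tested. In bulk RNA, fewer cells of a type and less RNA per cell cannot be told apart.

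Of the 37 genes, 27 passed the filter on low counts and were tested among 13784 genes. Against parental cells, 11 tested members were higher and 13 were lower in BMFA3 cells, and 3 were not called (edgeR quasi-likelihood test, Benjamini-Hochberg adjusted p under 0.05). In that comparison 59% of all tested genes were called, 29.2% higher and 29.9% lower. In CT1BA5 cells 10 were higher, 15 were lower and 2 were not called, where 70.7% of all tested genes were called, 35.5% higher and 35.1% lower. For a change of more than 2-fold, tested directly with glmTreat, 5 members were higher and 7 lower in BMFA3 cells, beside 12.4% of all tested genes, 5.7% higher and 6.68% lower. By the same rule 7 were higher and 10 lower in CT1BA5 cells, beside 21.8% of all tested genes, 9.32% higher and 12.5% lower. With both sorted groups averaged, 10 members were higher and 14 lower, beside 69.6% of all tested genes, 34.8% higher and 34.8% lower. By more than 2-fold these were 6 and 8, beside 17.2% of all tested genes, 7.13% higher and 10.1% lower. The median log2 fold change of the tested members was -0.15 in BMFA3 and -0.55 in CT1BA5 cells, and over all tested genes it was 0.0047 and -0.0005. With both sorted groups averaged these medians were -0.67 and 0.0063. The comparisons with parental cells share the 3 parental libraries, so their values are set side by side and are not independent. In the median the 9 tested laminin genes stood at -0.84 in BMFA3 and -1.35 in CT1BA5 cells, and the 18 tested integrin genes at 0.18 and -0.30.

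**Figure D1:**
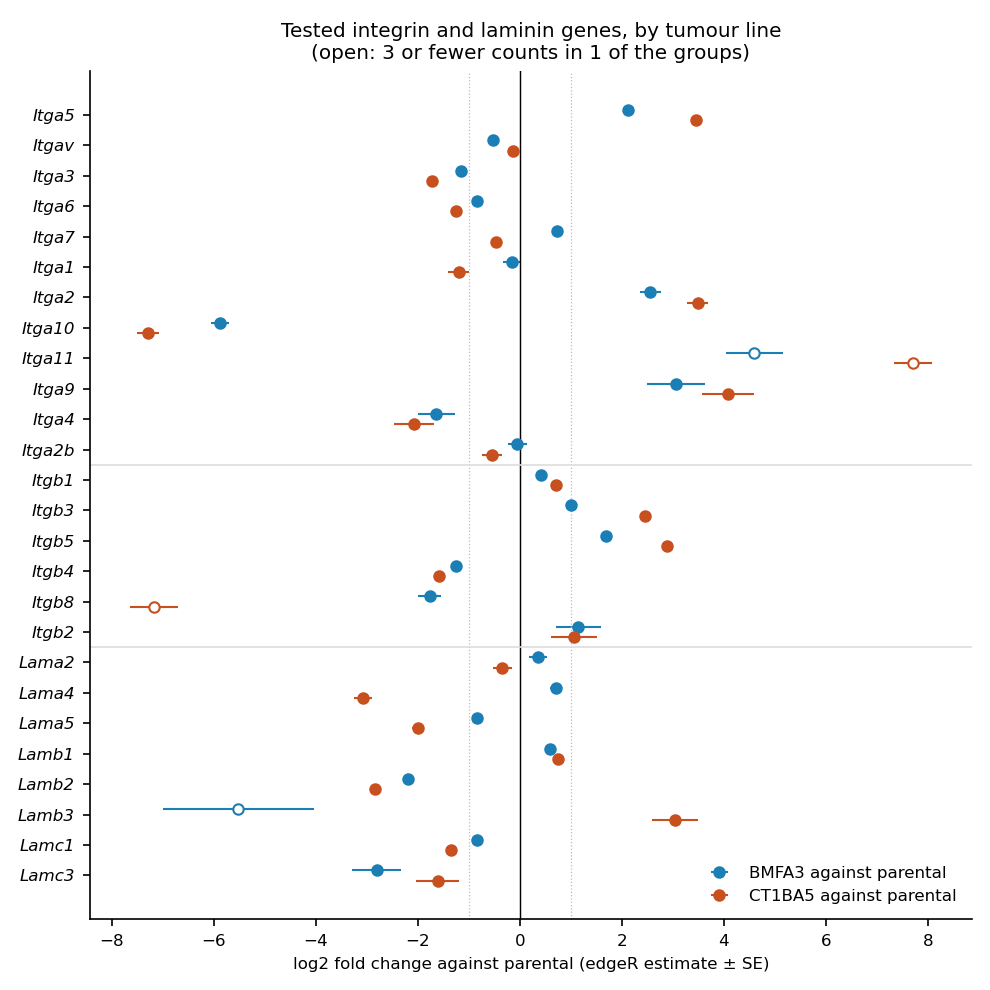
Log2 fold change against parental cells (x axis, edgeR estimate with its SE) of tested members (y axis), in BMFA3 cells (blue) and CT1BA5 cells (orange), with integrin alpha, integrin beta and laminin genes in blocks; open points have 3 or fewer counts in 1 of the groups, and dotted lines mark a change of 2-fold. Itga5, Itgb5 and Itgb3 lie to the right in both lines, Itga10, Lamb2, Itga3 and Itgb4 to the left, and Itga7, Lama4 and Lamb3 on opposite sides.

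The integrin chains that bind fibronectin and other RGD ligands changed most clearly through Itga5, Itgb5 and Itgb3, which were higher in both sorted groups. Itga5 (chr15:103344286-103366763, minus strand, GRCm38) encodes the alpha chain of the main fibronectin receptor. Itga5 read 147, 152 and 147 CPM in parental libraries, 652 and 638 CPM in BMFA3 libraries and 1644 and 1594 CPM in CT1BA5 libraries. The groups did not overlap, and each CT1BA5 library stood above each BMFA3 library. Against parental cells the log2 fold change of Itga5 was 2.12 ± 0.062 (SE, adjusted p = 3.72e-16) in BMFA3 and 3.45 ± 0.064 (SE, adjusted p = 1.68e-19) in CT1BA5 cells by edgeR, which is 4.34-fold and 10.9-fold. Itgb1, the beta chain that pairs with alpha5 and with most other alpha chains, read 1342, 1382 and 1384 CPM in parental libraries, 1801 and 1842 CPM in BMFA3 libraries and 2282 and 2217 CPM in CT1BA5 libraries. Its groups also kept the order parental, BMFA3, CT1BA5 without overlap, over a much smaller distance. Itgb1 rose, with log2 fold changes of 0.41 ± 0.056 (SE, adjusted p = 2.67e-06) in BMFA3 and 0.72 ± 0.055 (SE, adjusted p = 5.48e-10) in CT1BA5 cells by edgeR.

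Itgav, the alpha chain of the vitronectin and TGF-beta-activating receptors, did not rise with its beta partners Itgb5 and Itgb3. Itgav read 429.6, 434 and 464 CPM in parental libraries, 306 and 312 CPM in BMFA3 libraries and 439 and 368 CPM in CT1BA5 libraries. BMFA3 libraries lay below every parental library, and CT1BA5 libraries overlapped the parental ones. It fell by 0.52 ± 0.074 (SE, adjusted p = 5.33e-06) on the log2 scale in BMFA3 cells, and in CT1BA5 cells the estimate was -0.13 ± 0.073 (SE, adjusted p = 0.109) by edgeR. Without CT1BA5 replicate 1 the CT1BA5 estimate was -0.26 with an adjusted p of 0.00147, so this library decides that Itgav was not called. Itgb5 (chr16:33829665-33949338, plus strand), whose product pairs with alphav as a vitronectin receptor, read 70.6, 72 and 71.6 CPM in parental libraries, 230.4 and 229.9 CPM in BMFA3 libraries and 528 and 524 CPM in CT1BA5 libraries. The BMFA3 and CT1BA5 values were tightly grouped and lay far above parental ones. Itgb5 rose 3.22-fold in BMFA3 and 7.37-fold in CT1BA5 cells, with log2 fold changes of 1.69 ± 0.061 (SE, adjusted p = 9.6e-15) and 2.88 ± 0.062 (SE, adjusted p = 1.32e-18) by edgeR. Itgb3, which pairs with alphav as a receptor for vitronectin and osteopontin, read 30.6, 28.5 and 27.3 CPM in parental libraries, 56.7 and 58 CPM in BMFA3 libraries and 164 and 151 CPM in CT1BA5 libraries. Again no group overlapped another. Itgb3 rose, with log2 fold changes of 1.00 ± 0.077 (SE, adjusted p = 9.66e-10) in BMFA3 and 2.45 ± 0.073 (SE, adjusted p = 1.78e-16) in CT1BA5 cells by edgeR.

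Itgb8, which pairs with alphav and takes part in activating latent TGF-beta, went the other way. Itgb8 read 8.83, 10.7 and 14.1 CPM in parental libraries, 3.29 and 3.38 CPM in BMFA3 libraries and 0.129 and 0 CPM in CT1BA5 libraries. The 2 CT1BA5 libraries held 2 counts in all. Itgb8 fell by 1.77 ± 0.23 (SE, adjusted p = 1.94e-06) on the log2 scale in BMFA3 cells by edgeR. In CT1BA5 cells the count ratio of parental to CT1BA5 was 167 (95% interval 45.9 to 1380.0, 530 against 2 counts), and the test of this difference gave an adjusted p of 5.77e-11 by edgeR. This interval covers counting error only.

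**Figure D2:**
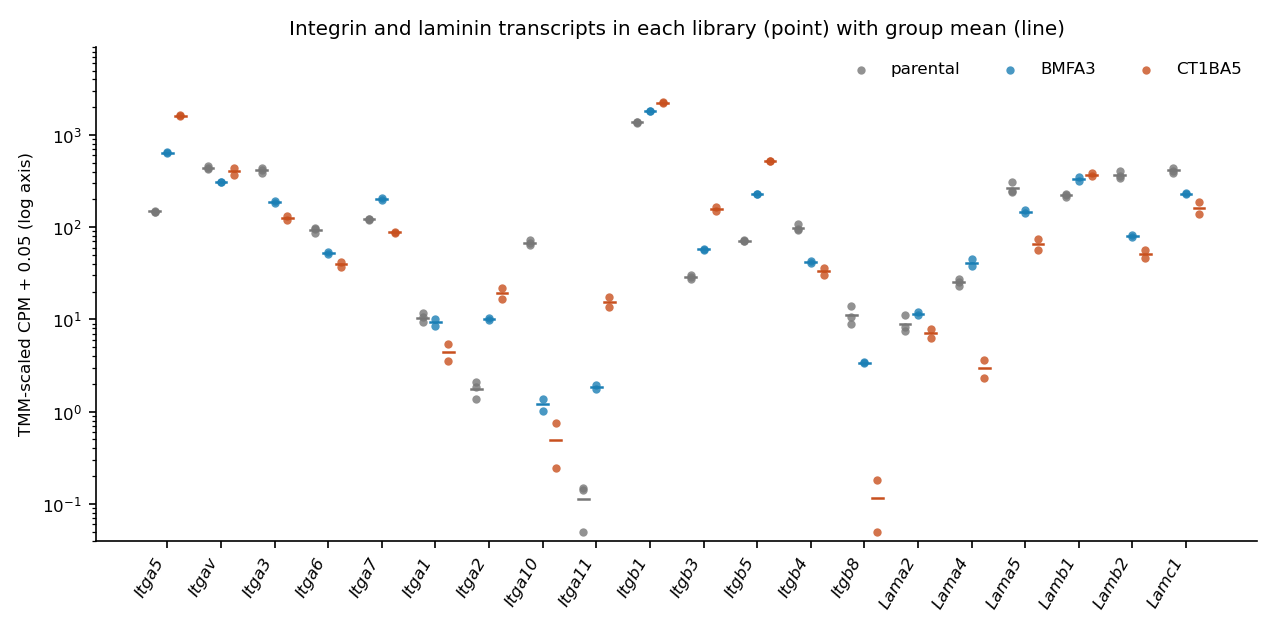
Level of integrin and laminin genes in each library (points, TMM-scaled CPM plus 0.05 on a log axis) with the group mean as a line, for parental (grey), BMFA3 (blue) and CT1BA5 (orange) libraries. Itga5 and Itgb5 rise from grey to blue to orange, while Itga10, Itgb8, Lama5 and Lamb2 descend.

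The bases before the annotated starts of Itga5 and Itgb5, the called members with the smallest p in this class, are shown with those of Itga10 and Itga11, the collagen receptor chains with the largest changes in opposite directions. Each is the 250 bases before the RefSeq start (GRCm38.p6), 5′ to 3′ on the gene's strand. Their positions are chr15:103366792-103367041, minus strand for Itga5, chr16:33829415-33829664, plus strand for Itgb5, chr9:62677605-62677854, plus strand for Itga11 and chr3:96645334-96645583, plus strand for Itga10. The last bases of the Itga11 stretch lie inside the gene as placed by GENCODE M21, whose start is at chr9:62677826. Capitals mark letters matching, on either strand, the GC box GGGCGG (in Itga5 and Itgb5) or the TEAD motif GGAATG (in Itga10).
Itga5: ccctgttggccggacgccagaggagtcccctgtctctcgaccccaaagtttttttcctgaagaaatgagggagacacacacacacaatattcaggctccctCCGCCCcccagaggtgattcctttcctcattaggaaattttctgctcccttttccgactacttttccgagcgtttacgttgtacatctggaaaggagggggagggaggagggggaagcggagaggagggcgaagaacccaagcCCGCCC
Itgb5: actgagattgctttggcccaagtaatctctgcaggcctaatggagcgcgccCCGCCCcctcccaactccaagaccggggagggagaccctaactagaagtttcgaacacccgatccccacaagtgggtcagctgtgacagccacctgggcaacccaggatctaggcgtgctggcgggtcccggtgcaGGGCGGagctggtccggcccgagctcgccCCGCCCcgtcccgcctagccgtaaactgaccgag
Itga11: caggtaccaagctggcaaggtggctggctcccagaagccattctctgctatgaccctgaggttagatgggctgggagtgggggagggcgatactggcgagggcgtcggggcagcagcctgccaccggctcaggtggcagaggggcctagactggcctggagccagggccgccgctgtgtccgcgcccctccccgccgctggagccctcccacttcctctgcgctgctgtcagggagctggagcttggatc
Itga10: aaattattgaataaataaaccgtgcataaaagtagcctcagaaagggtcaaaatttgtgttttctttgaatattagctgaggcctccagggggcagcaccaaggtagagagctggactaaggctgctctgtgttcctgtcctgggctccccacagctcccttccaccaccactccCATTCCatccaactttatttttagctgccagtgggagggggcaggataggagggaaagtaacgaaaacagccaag
The search also covered the AP-1 motif TGANTCA and the TATA motif TATAAA, in windows of 300 bases that include 50 bases after the start; none of these motifs overlap in the 4 windows. In Itga5 the GC box occurred 2 times, in Itgb5 3 times, and the TEAD motif 1 time in Itga10, while these letters were not in the Itga11 window. Of 32817 promoters in the RefSeq table, 35.6% hold the GC box, 14.7% the TEAD motif, 7.81% the AP-1 motif and 13.6% the TATA motif. A RefSeq promoter was matched for 23 of the 37 genes (26 promoters), of which 11 genes had the GC box, 3 the TEAD motif, 3 the AP-1 motif and 0 the TATA motif. A match describes letters only, and nothing on the binding of a factor was measured.

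The laminin-binding integrin chains were lower in sorted cells, apart from Itga7 in BMFA3 cells. Itga3, whose product with beta1 binds laminins with alpha5 or alpha3 chains, read 388, 416 and 442 CPM in parental libraries, 194 and 182 CPM in BMFA3 libraries and 131 and 120.2 CPM in CT1BA5 libraries. Each sorted library was below each parental one, and CT1BA5 was below BMFA3. Itga3 fell, with log2 fold changes of -1.15 ± 0.072 (SE, adjusted p = 5.1e-11) in BMFA3 and -1.73 ± 0.075 (SE, adjusted p = 6.39e-14) in CT1BA5 cells by edgeR. Itga6, which pairs with beta1 or beta4, read 87.2, 98 and 96.2 CPM in parental libraries, 51.6 and 54 CPM in BMFA3 libraries and 42 and 36.9 CPM in CT1BA5 libraries. Its order was the same. Itga6 fell, with log2 fold changes of -0.83 ± 0.078 (SE, adjusted p = 1.77e-08) in BMFA3 and -1.25 ± 0.081 (SE, adjusted p = 3.7e-11) in CT1BA5 cells by edgeR. Itgb4, the beta chain that joins alpha6 in hemidesmosomes, the anchoring sites of epithelia on laminin, read 92.6, 95.4 and 109 CPM in parental libraries, 42.6 and 41.4 CPM in BMFA3 libraries and 36.4 and 29.9 CPM in CT1BA5 libraries. Both sorted groups lay well below the parental group and close to each other. Itgb4 fell in both lines, with log2 fold changes of -1.24 ± 0.090 (SE, adjusted p = 3.83e-10) in BMFA3 and -1.58 ± 0.093 (SE, adjusted p = 8.8e-12) in CT1BA5 cells by edgeR.

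Itga7, whose product with beta1 is the laminin receptor best known from muscle, moved in opposite directions in the sorted groups. Itga7 read 121, 121 and 123 CPM in parental libraries, 208 and 198 CPM in BMFA3 libraries and 89.3 and 86.3 CPM in CT1BA5 libraries. BMFA3 libraries lay above and CT1BA5 libraries below all parental libraries. The log2 fold change of Itga7 was 0.73 ± 0.066 (SE, adjusted p = 1.03e-08) in BMFA3, -0.47 ± 0.069 (SE, adjusted p = 4.75e-06) in CT1BA5 cells and -1.21 ± 0.075 (SE, adjusted p = 8.2e-11) for CT1BA5 against BMFA3, by edgeR. Averaged over both lines the estimate was 0.13 ± 0.057 (SE, adjusted p = 0.0483) by edgeR. That averaged call was lost in 6 of the 7 fits that leave out 1 library, all but the one without CT1BA5 replicate 2, with adjusted p of 0.0574 to 0.167, and on library size alone the estimate was -0.03. It therefore does not describe either line.

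Among the collagen-binding chains, Itga10 fell and Itga11 rose in both lines. Itga10 (chr3:96645584-96664519, plus strand), a collagen receptor chain best known from cartilage, read 72, 64.2 and 68.1 CPM in parental libraries, 0.975 and 1.33 CPM in BMFA3 libraries and 0.194 and 0.701 CPM in CT1BA5 libraries. Parental libraries were at 64.2 CPM or more and no sorted library passed 1.33 CPM. Itga10 fell in both lines, with log2 fold changes of -5.88 ± 0.18 (SE, adjusted p = 6.38e-16) in BMFA3 and -7.30 ± 0.21 (SE, adjusted p = 1.6e-16) in CT1BA5 cells by edgeR. The CT1BA5 size depends on single libraries, at -6.58 without CT1BA5 replicate 1 and -8.39 without CT1BA5 replicate 2. Itga11 (chr9:62677826-62783982, plus strand), a receptor for fibrillar collagen of fibroblasts, read 0.0920, 0 and 0.0981 CPM in parental libraries, 1.89 and 1.72 CPM in BMFA3 libraries and 17.5 and 13.6 CPM in CT1BA5 libraries. It was near 0 in culture, with 3 counts over the parental libraries, and highest in CT1BA5 cells. The count ratio to parental cells was 27.1 (95% interval 8.83 to 135, 57 against 3 counts) in BMFA3 and 236 (95% interval 80.4 to 1150.0, 446 against 3 counts) in CT1BA5 cells, with adjusted p of 7.11e-07 and 4.57e-13 by edgeR. Without parental replicate 3, which holds 2 of those counts, the fitted log2 fold changes were 5.19 and 8.29 in place of 4.6 and 7.7.

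Itga2, a chain of the collagen receptor of platelets and epithelia, read 2.02, 1.31 and 1.81 CPM in parental libraries, 10.4 and 9.87 CPM in BMFA3 libraries and 21.7 and 16.6 CPM in CT1BA5 libraries. Its sorted libraries lay above every parental library, by log2 fold changes of 2.56 ± 0.21 (SE, adjusted p = 3.03e-09) in BMFA3 and 3.48 ± 0.20 (SE, adjusted p = 5.38e-12) in CT1BA5 cells by edgeR. Itga1, a receptor chain that favours the collagen of basement membranes, read 11.6, 10.5 and 9.22 CPM in parental libraries, 8.53 and 10.1 CPM in BMFA3 libraries and 5.37 and 3.50 CPM in CT1BA5 libraries. BMFA3 values overlapped parental ones and CT1BA5 values lay below both. The log2 fold change of Itga1 was -0.15 ± 0.18 (SE, adjusted p = 0.493) in BMFA3 and -1.20 ± 0.20 (SE, adjusted p = 2.65e-05) in CT1BA5 cells by edgeR. On the per-length scale, CPM per kilobase of exon, the group means were 13.1 for Itga10 and 0.0124 for Itga11 in parental cells, and 0.0863 and 3.04 in CT1BA5 cells.

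The remaining tested integrin genes stayed under 10 CPM in each group mean. Itga9, a receptor chain for tenascin-C and osteopontin, ranged from 0.0981 to 0.368 CPM in parental libraries, 1.10 and 2.05 CPM in BMFA3 and 3.36 and 2.96 CPM in CT1BA5 libraries, with log2 fold changes of 3.06 ± 0.56 (SE, adjusted p = 0.000103) and 4.08 ± 0.51 (SE, adjusted p = 6.15e-07) by edgeR. Itga4, which binds VCAM1 and fibronectin, read 3.87, 3.35 and 3.53 CPM in parental libraries, 1.10 and 1.19 CPM in BMFA3 libraries and 1.23 and 0.389 CPM in CT1BA5 libraries, with log2 fold changes of -1.64 ± 0.36 (SE, adjusted p = 0.000588) and -2.08 ± 0.39 (SE, adjusted p = 8.21e-05) by edgeR. Without CT1BA5 replicate 1 the CT1BA5 value was -3.17. Both genes kept sorted and parental libraries apart, in opposite directions. Itga2b, the fibrinogen receptor chain of platelets, read 7.73, 7.35 and 9.37 CPM in parental libraries, 6.94 and 9.01 CPM in BMFA3 libraries and 5.24 and 6.07 CPM in CT1BA5 libraries. Of the other platelet genes listed, Pf4, Gp9 and Gp6 had 0 counts in every library and Ppbp at most 2. Gp1ba, a platelet adhesion receptor chain, was detected (1.01 ± 0.0665 CPM in parental, 0.821 ± 0.131 CPM in BMFA3 and 0.421 ± 0.0449 CPM in CT1BA5 libraries), with log2 fold changes of -0.30 ± 0.44 (SE, adjusted p = 0.58) in BMFA3 and -1.25 ± 0.52 (SE, adjusted p = 0.0376) in CT1BA5 cells by edgeR. The estimate for Itga2b was -0.05 ± 0.18 (SE, adjusted p = 0.834) in BMFA3 and -0.55 ± 0.19 (SE, adjusted p = 0.0167) in CT1BA5 cells by edgeR, and the CT1BA5 call was lost without parental replicate 3 (adjusted p = 0.0878) or CT1BA5 replicate 1 (0.115). Itgb2, the beta chain of leukocyte integrins, read 0.736, 1.09 and 0.441 CPM in parental libraries, 1.71 and 1.52 CPM in BMFA3 libraries and 1.29 and 1.79 CPM in CT1BA5 libraries, with log2 fold changes of 1.15 ± 0.44 (SE, adjusted p = 0.0311) and 1.07 ± 0.45 (SE, adjusted p = 0.0418) by edgeR. The summed level of leukocyte markers given above was also higher in sorted libraries, mostly through S100a8, Csf1r and Cd68. In parental, BMFA3 and CT1BA5 libraries S100a8 averaged 0, 5.39 and 1.71 CPM, Csf1r 3.37, 8.29 and 5.57 CPM, and Cd68 10.1, 12.4 and 12.8 CPM. Adgre1 and Laptm5 reached at most 2 counts, and Lyz2 averaged 0.328, 0.409 and 0.298 CPM. The part of leukocytes in the rise of Itgb2 was not tested. In BMFA3 cells the call was lost without parental replicate 1 or 3 or either BMFA3 replicate (adjusted p of 0.0518 to 0.16), and in CT1BA5 cells without any 1 of the libraries other than parental replicate 2 (0.0547 to 0.241).

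Of the 10 members that were not tested, 8 are integrin genes. Itgad and Itgam, alpha chains of leukocyte integrins, had 0 counts in every library. Itgal and Itgax, of the same class, reached 4 and 3 counts in their highest library, Itgae and Itgb7, which pair with each other in lymphocytes, 4 and 11 counts, Itgb6, an epithelial partner of alphav, 1 count, and Itga8, a nephronectin receptor chain, 10 counts. A count of 3, the floor used here, equals 0.147 to 0.276 CPM in these libraries, and lower levels were not detectable at this depth. The laminin genes Lama1 and Lama3, of embryonic and epithelial basement membranes, were not tested either and reached 6 and 20 counts.

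Of the laminin alpha genes, Lama5 was lower in both lines, Lama4 was higher in BMFA3 and lower in CT1BA5 cells, and Lama2 was not called in either. Lama5 (chr2:180176373-180225859, minus strand), the alpha chain of most adult epithelial and vascular basement membranes, read 248, 239 and 307 CPM in parental libraries, 152 and 143 CPM in BMFA3 libraries and 74.5 and 57 CPM in CT1BA5 libraries. The 3 groups did not overlap and were lowest in CT1BA5 cells. Lama5 fell in both lines, with log2 fold changes of -0.84 ± 0.10 (SE, adjusted p = 1.04e-06) in BMFA3 and -2.01 ± 0.11 (SE, adjusted p = 4.2e-12) in CT1BA5 cells by edgeR. Lama4, the alpha chain of laminins of mesenchymal cells and small vessels, read 22.9, 25.6 and 27.3 CPM in parental libraries, 37.8 and 44.9 CPM in BMFA3 libraries and 3.62 and 2.26 CPM in CT1BA5 libraries. BMFA3 libraries stood above and CT1BA5 libraries far below all parental libraries. The log2 fold change of Lama4 was 0.70 ± 0.12 (SE, adjusted p = 3.71e-05) in BMFA3 and -3.08 ± 0.18 (SE, adjusted p = 5.38e-12) in CT1BA5 cells by edgeR, and -3.78 ± 0.18 (SE, adjusted p = 1.14e-12) for CT1BA5 against BMFA3, which is 13.8-fold lower. Lama2, the alpha chain of muscle and nerve laminins, read 8.19, 7.42 and 11 CPM in parental libraries, 12.1 and 11 CPM in BMFA3 libraries and 7.89 and 6.23 CPM in CT1BA5 libraries. CT1BA5 libraries overlapped parental ones, and BMFA3 libraries lay just above them. The estimates were 0.36 ± 0.18 (SE, adjusted p = 0.091) and -0.34 ± 0.19 (SE, adjusted p = 0.115) by edgeR. Without parental replicate 3 the BMFA3 estimate was 0.56 with an adjusted p of 0.0167.

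The 2 common laminin beta genes moved in opposite directions in each line. Lamb2 (chr9:108479736-108490530, plus strand), the beta chain known from the kidney filter and the neuromuscular junction, read 342, 358 and 403 CPM in parental libraries, 77.9 and 81.9 CPM in BMFA3 libraries and 56.7 and 46.2 CPM in CT1BA5 libraries. The lowest parental library, at 342 CPM, stood far above the highest sorted library, at 81.9 CPM. Lamb2 fell 4.60-fold in BMFA3 and 7.13-fold in CT1BA5 cells, with log2 fold changes of -2.20 ± 0.091 (SE, adjusted p = 7.99e-14) and -2.83 ± 0.096 (SE, adjusted p = 1.27e-15) by edgeR. Lamb1 (chr12:31265234-31329644, plus strand), the beta chain of most other laminins, read 214, 222 and 229.6 CPM in parental libraries, 319 and 350.2 CPM in BMFA3 libraries and 386 and 356 CPM in CT1BA5 libraries. Sorted libraries lay above each parental library, and the sorted groups lay close to each other without overlap. Lamb1 rose, with log2 fold changes of 0.59 ± 0.067 (SE, adjusted p = 2.38e-07) in BMFA3 and 0.74 ± 0.067 (SE, adjusted p = 5.37e-09) in CT1BA5 cells by edgeR. Lamb3, the beta chain of the laminin of skin and glands, stayed under 10 CPM and read 0.460, 0.146 and 0.491 CPM in parental libraries, 0 and 0 CPM in BMFA3 libraries and 3.17 and 3.11 CPM in CT1BA5 libraries. With 3 counts per group taken as the floor, Lamb3 was at least 3.97-fold lower in BMFA3 than in parental cells and at least 33-fold higher in CT1BA5 than in BMFA3 cells. In CT1BA5 against parental cells its log2 fold change was 3.04 ± 0.46 (SE, adjusted p = 9.3e-06) by edgeR.

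The laminin gamma genes Lamc1 and Lamc3 were lower in both lines. Lamc1, the gamma chain of most laminins, read 390.4, 411 and 443 CPM in parental libraries, 231 and 232 CPM in BMFA3 libraries and 187 and 138 CPM in CT1BA5 libraries. The sorted libraries lay below every parental library. Lamc1 fell, with log2 fold changes of -0.84 ± 0.094 (SE, adjusted p = 2.17e-07) in BMFA3 and -1.35 ± 0.096 (SE, adjusted p = 1.57e-10) in CT1BA5 cells by edgeR. Lamc3 stayed under 10 CPM and read 2.02, 3.06 and 2.99 CPM in parental libraries, 0.183 and 0.596 CPM in BMFA3 libraries and 0.647 and 1.17 CPM in CT1BA5 libraries. Its log2 fold changes were -2.81 ± 0.48 (SE, adjusted p = 5.22e-05) and -1.61 ± 0.42 (SE, adjusted p = 0.00218) by edgeR, and the first was -2.18 without BMFA3 replicate 1 and -3.84 without BMFA3 replicate 2.

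Levels of different genes were compared as CPM per kilobase of exon, as a mean per group. In parental cells the order of the highest was Itgb1 at 335, Itga3 at 72.8, Lamb2 at 60.4, Lamc1 at 50.1 and Itgav at 41.2. Itga5 took the sixth place at 30.1, and Lama5 and Lamb1, next at 23.2 and 22.4, differed by less than the SD of Lama5 (3.27). In BMFA3 cells the order was Itgb1 at 446, Itga5 at 131, Itgb5 at 64.8, Lamb1 at 33.7 and Itga3 at 32.9, the last pair within 1 SD of Lamb1 (2.23). In CT1BA5 cells it was Itgb1 at 551, Itga5 at 328, Itgb5 at 148, and then Itgav at 37.5 and Lamb1 at 37.4, which lie within 1 SD of Itgav (4.66). Thus Itga5 moved from the sixth to the second place (from the seventh with the longest transcript as the length) and Lamb2 left the first 5.

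The make-up of each chain class was described as a chain's share of the summed CPM per kilobase, with no test. Itga5 made up 16.3% ± 0.654 in parental, 57.4% ± 0.0366 in BMFA3 and 80.0% ± 1.13 in CT1BA5 libraries of integrin alpha transcripts (mean ± SD, n = 3, 2 and 2). The laminin-binding chains Itga3, Itga6 and Itga7 together held 53% ± 1.07 in parental, 28% ± 0.542 in BMFA3 and 9.06% ± 0.155 in CT1BA5 libraries. Parental alpha chain transcripts were thus mostly laminin-binding, and sorted ones mostly of the fibronectin and RGD class, which held 39.3% ± 0.433 in parental, 70.7% ± 0.459 in BMFA3 and 89.3% ± 0.364 in CT1BA5 libraries. The collagen-binding chains held 7.53% ± 0.638 in parental, 1.10% ± 0.0332 in BMFA3 and 1.47% ± 0.203 in CT1BA5 libraries. Among integrin beta transcripts Itgb1 held 89.2% ± 0.191 in parental, 84.6% ± 0.253 in BMFA3 and 75.4% ± 0.0677 in CT1BA5 libraries, and Itgb5 held 5.35% ± 0.0533 in parental, 12.3% ± 0.180 in BMFA3 and 20.3% ± 0.266 in CT1BA5 libraries. Among laminin beta transcripts Lamb2 held 72.2%, 72.4% and 74% in parental, 28.5% and 27.6% in BMFA3 and 19.1% and 17.3% in CT1BA5 libraries. Lamb1 held nearly all of the rest, so the majority chain differed between cultured and sorted cells in every library. Among laminin alpha transcripts Lama5 held 90.0%, 89% and 90.2% in parental, 77.4% and 73.9% in BMFA3 and 88.3% and 86.8% in CT1BA5 libraries, and Lama4 held 7.85%, 9.01% and 7.57% in parental, 18.2% and 21.8% in BMFA3 and 4.06% and 3.24% in CT1BA5 libraries. Lama5 was the majority alpha chain throughout, with its lowest share in BMFA3 cells.

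The summed levels of the classes, given with no test, went in opposite directions for integrins and laminins. Summed integrin alpha transcripts were 185 ± 6.63 in parental, 228 ± 3.39 in BMFA3 and 411 ± 14.9 CPM per kilobase in CT1BA5 libraries, and summed integrin beta transcripts 376 ± 6.74 in parental, 528 ± 6.94 in BMFA3 and 731 ± 14.3 CPM per kilobase in CT1BA5 libraries. Both integrin sums were highest in CT1BA5 cells. The alpha sum rose through Itga5, at 30.1 in parental, 131 in BMFA3 and 328 CPM per kilobase in CT1BA5 cells. The remaining alpha chains together were lower in both sorted groups than in parental cells. Summed laminin alpha transcripts were 25.9 ± 3.51 in parental, 17.1 ± 0.153 in BMFA3 and 6.58 ± 1.16 CPM per kilobase in CT1BA5 libraries. Laminin beta transcripts summed to 82.8 ± 5.97 in parental, 46.9 ± 2.69 in BMFA3 and 46.3 ± 3.34 CPM per kilobase in CT1BA5 libraries. Both laminin sums were lower in both sorted groups than in parental cells, and in CT1BA5 cells the alpha chain sum stood further below its parental level. The beta sum fell through Lamb2, at 60.4 in parental, 13.1 in BMFA3 and 8.46 CPM per kilobase in CT1BA5 cells. Lamb1 rose, at 22.4, 33.7 and 37.4 in the same order. With the longest annotated transcript as the length, a choice made after seeing the data, Lamb2 held 62.9%, 19.7% and 12.3% of laminin beta transcripts in parental, BMFA3 and CT1BA5 cells, so the majority chain in each group did not change.

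**Figure D3:**
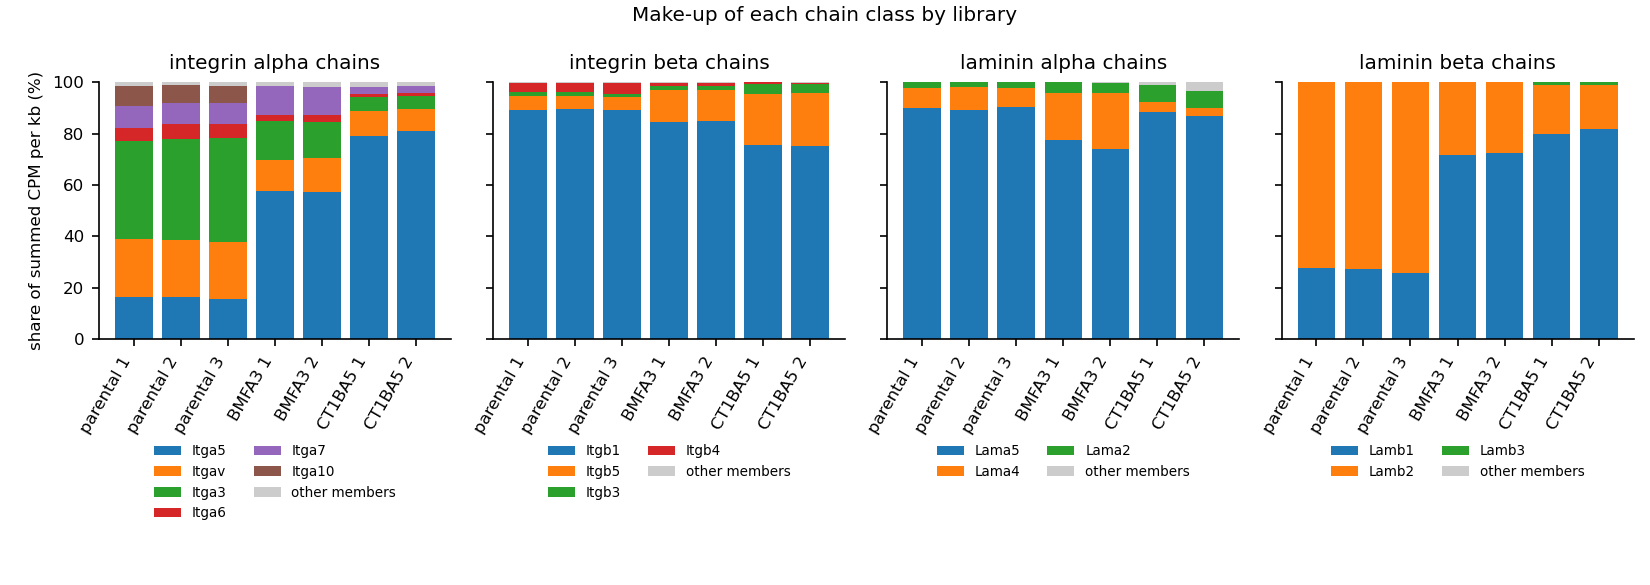
Share of each chain (coloured bar segments, % of summed CPM per kilobase of exon) within integrin alpha, integrin beta, laminin alpha and laminin beta transcripts in each of the 7 libraries (x axis), with the remaining members in grey. Itga5 takes 79.2% and 80.8% of integrin alpha transcripts in the CT1BA5 libraries, and the larger laminin beta segment is Lamb2 in parental and Lamb1 in sorted libraries.

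The sorted groups were also compared with each other, as PanMeso cells injected with CT1BA5 against those injected with BMFA3 cancer cells. Effects of the cancer line and of the tumours or sorts of each group cannot be told apart. In CT1BA5 against BMFA3 cells 10 tested members were higher, 12 lower and 5 not called, where 50.8% of all tested genes were called, 25.5% higher and 25.3% lower. By more than 2-fold, 5 members were higher (Itga5, Itga11, Itgb3, Itgb5 and Lamb3) and 3 were lower (Itga7, Itgb8 and Lama4), beside 6.35% of all tested genes, 2.68% higher and 3.66% lower. Itga5 was 2.51-fold, Itgb3 2.74-fold and Itgb5 2.29-fold higher in CT1BA5 cells, with log2 fold changes of 1.33 ± 0.069 (SE, adjusted p = 5.25e-12), 1.46 ± 0.078 (SE, adjusted p = 8.33e-12) and 1.19 ± 0.067 (SE, adjusted p = 1.67e-11) by edgeR. Thus the genes for these RGD receptor chains, already higher in BMFA3 cells, were higher still in CT1BA5 cells. Itga11 was higher by a log2 fold change of 3.11 ± 0.25 (SE, adjusted p = 4.57e-09) by edgeR. For Itgb8 the count ratio of BMFA3 to CT1BA5 was 47.2 (95% interval 12.7 to 395, 105 against 2 counts). Itga7, Lama4 and Lamb3 were the members called in opposite directions in the lines against parental cells, a pattern of 3.33% of all tested genes. Lamb1 was not called between the lines, at 0.15 ± 0.073 (SE, adjusted p = 0.1) by edgeR, and Lamb2 was, at -0.63 ± 0.098 (SE, adjusted p = 2.15e-05). Without CT1BA5 replicate 2, Lamb1 reached an adjusted p of 0.03 at 0.21.

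Genes that work with these receptors were counted in lists. Of 34 integrin adaptors and activators, 32 were tested and 14 were higher and 11 lower in sorted against parental cells, with a median log2 fold change of 0.16. Tgfb1i1, a focal adhesion adaptor related to paxillin, was higher (32.6 ± 1.70 CPM in parental, 77.4 ± 3.57 CPM in BMFA3 and 151 ± 4.09 CPM in CT1BA5 libraries), as were Zyx, an adaptor of actin at adhesions under tension (397 ± 11.1 CPM in parental, 748 ± 4.52 CPM in BMFA3 and 891 ± 8.22 CPM in CT1BA5 libraries), and Apbb1ip, which brings RAP1 to talin (11.7 ± 0.808 CPM in parental, 43.2 ± 1.49 CPM in BMFA3 and 38.4 ± 0.824 CPM in CT1BA5 libraries). Tns3, a tensin that links beta chains to actin, was lower (481 ± 23.2 CPM in parental, 242 ± 5.17 CPM in BMFA3 and 196 ± 12.6 CPM in CT1BA5 libraries). Their log2 fold changes over both sorted groups were 1.73 ± 0.064 (SE, adjusted p = 5.13e-15) for Tgfb1i1, 1.04 ± 0.053 (SE, adjusted p = 8.81e-13) for Zyx, 1.81 ± 0.089 (SE, adjusted p = 5.24e-13) for Apbb1ip and -1.14 ± 0.055 (SE, adjusted p = 3.8e-13) for Tns3 by edgeR. At 78.1% the share of this list that was called stood near the 69.6% of all tested genes.

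Of 32 other basement membrane and laminin-binding genes, 25 were tested, 6 were higher and 16 lower, with a median of -0.54, so that 88% of the list was called, beside 69.6% of all tested genes (34.8% higher and 34.8% lower). Nid2, a nidogen that ties laminin to collagen IV, was lower (293 ± 25.7 CPM in parental, 49.6 ± 2.62 CPM in BMFA3 and 16.9 ± 1.93 CPM in CT1BA5 libraries), and so were the collagen IV chains Col4a6 (326 ± 15.6 CPM in parental, 81 ± 0.791 CPM in BMFA3 and 23.8 ± 2.88 CPM in CT1BA5 libraries) and Col4a5 (725 ± 33.7 CPM in parental, 258 ± 2.24 CPM in BMFA3 and 114 ± 19.5 CPM in CT1BA5 libraries). The chains of Col4a5 and Col4a6 form 1 trimer of specialised basement membranes. Col18a1, a basement membrane collagen, was higher (47.7 ± 0.819 CPM in parental, 111 ± 6.20 CPM in BMFA3 and 219 ± 12.8 CPM in CT1BA5 libraries). By edgeR the log2 fold changes were -3.34 ± 0.074 (SE, adjusted p = 2.35e-18) for Nid2, -2.89 ± 0.065 (SE, adjusted p = 3.05e-18) for Col4a6, -2.08 ± 0.068 (SE, adjusted p = 7.24e-16) for Col4a5 and 1.71 ± 0.063 (SE, adjusted p = 5.4e-15) for Col18a1. Dag1, which encodes dystroglycan, a laminin receptor that is no integrin, fell from 439 ± 12.3 CPM to 281 ± 11 and 151 ± 20.2 CPM, with -1.09 ± 0.061 (SE, adjusted p = 4.33e-12) by edgeR. Bcam, a receptor for laminin alpha5, fell from 130.0 ± 8.19 CPM to 107 ± 7.91 and 34.2 ± 5.47 CPM, with -1.11 ± 0.071 (SE, adjusted p = 3.52e-11) by edgeR. Dag1 and Bcam were named after their values were seen.

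Of 31 integrin ligands outside the laminins, 26 were tested, 15 were higher and 8 lower, with a median of 0.55. The share called was 88.5%, beside the same 69.6% of all tested genes. The 4 with the smallest p were Spp1, Tnc, Emilin1 and Col6a1. Spp1 encodes osteopontin, a ligand of alphav and alpha9 integrins, and its mean levels were 14.1 ± 3.32 CPM in parental, 2668 ± 11.9 CPM in BMFA3 and 3358 ± 249.7 CPM in CT1BA5 libraries. Tnc, which encodes tenascin-C, read 27 ± 1.57 CPM in parental, 106 ± 1.67 CPM in BMFA3 and 1368 ± 169.9 CPM in CT1BA5 libraries, and Emilin1, an elastic fibre protein that binds alpha4 and alpha9 integrins, 23.5 ± 3.12 CPM in parental, 183 ± 5.21 CPM in BMFA3 and 279 ± 2.34 CPM in CT1BA5 libraries. All of these were higher in both lines, and Col6a1, a collagen VI chain, was lower (815 ± 79 CPM in parental, 342 ± 13.7 CPM in BMFA3 and 44.1 ± 6.27 CPM in CT1BA5 libraries). The log2 fold changes were 7.74 ± 0.13 (SE, adjusted p = 2.52e-20), 3.82 ± 0.075 (SE, adjusted p = 3.29e-19), 3.27 ± 0.080 (SE, adjusted p = 9.71e-18) and -2.73 ± 0.072 (SE, adjusted p = 2.87e-17) by edgeR. Fn1, the fibronectin gene and thus the ligand of alpha5 beta1, was named after its values were seen. It read 3119 ± 406 CPM in parental, 7459 ± 7.53 CPM in BMFA3 and 2772 ± 637 CPM in CT1BA5 libraries, with log2 fold changes of 1.26 ± 0.098 (SE, adjusted p = 1.2e-09) in BMFA3 and -0.17 ± 0.100 (SE, adjusted p = 0.134) in CT1BA5 cells by edgeR. Npnt belongs to both the basement membrane and the ligand list.

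**Figure D4:**
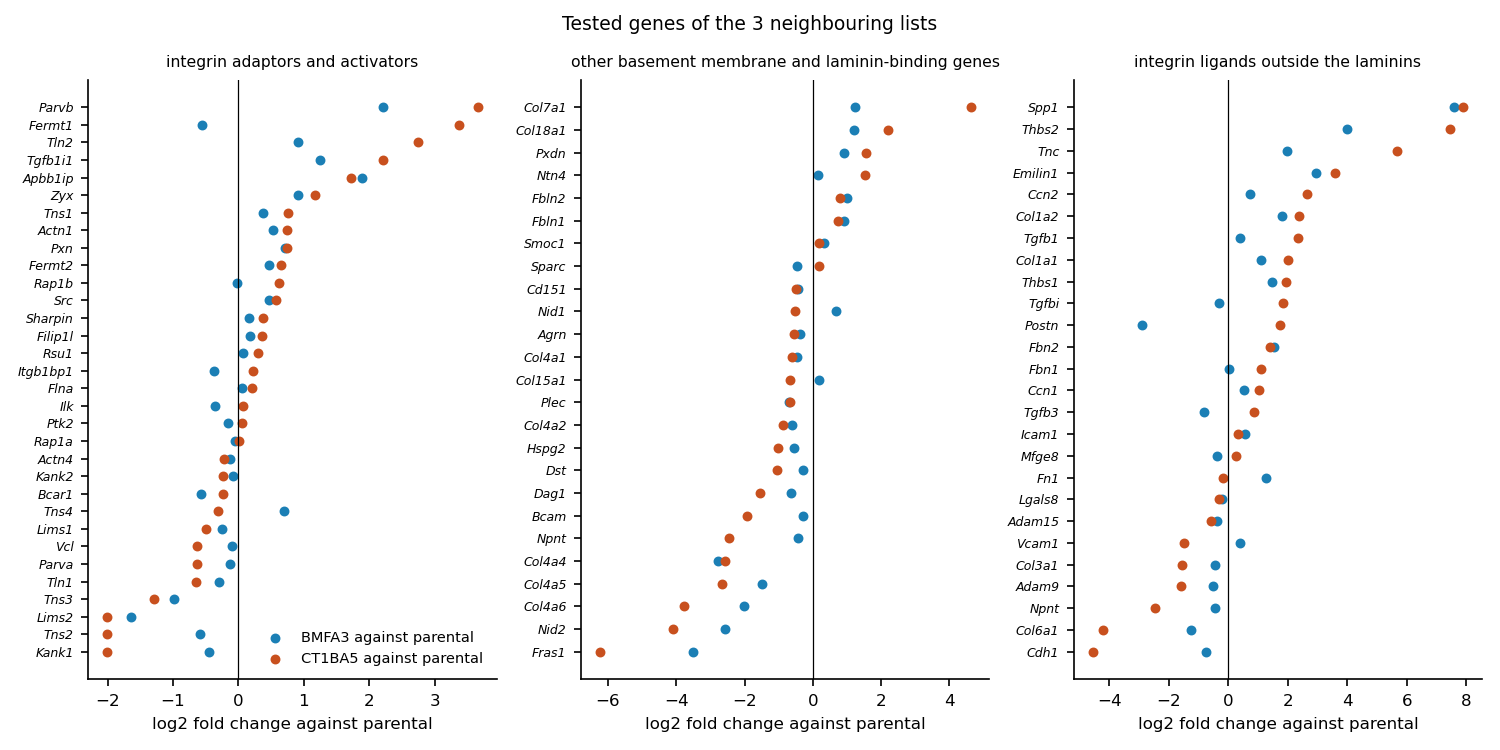
Log2 fold change against parental cells (x axis, edgeR) of each tested gene (y axis) of the integrin adaptor, basement membrane and integrin ligand lists, in BMFA3 (blue) and CT1BA5 cells (orange). Tgfb1i1, Zyx and Apbb1ip are to the right in the first panel, Nid2, Col4a6 and Col4a5 to the left in the second, and Spp1, Tnc and Emilin1 to the right in the third.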

How the data were processed

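The deposited file holds raw gene counts for Ensembl mouse genes, with a column per library. The submitters' processing notes list CASAVA, DESeq2 1.24.0 and mm10 with no role; no source used here states an aligner, a counter or whether strand was used. Of 54532 genes, 54495 matched GENCODE M21 (GRCm38), the source of symbols, positions and exon lengths. From there, genes were kept with filterByExpr by group (minimum count 10), leaving 13784 genes (99.9% of counts). After TMM scaling (factors 0.897 to 1.08) they were fitted in edgeR 4.0.16 with all 7 libraries and 3 groups (common biological coefficient of variation 0.083). Quasi-likelihood F tests were adjusted by Benjamini-Hochberg over all tested genes at 0.05; glmTreat tested changes beyond 2-fold. The SE is the log2 fold change divided by the square root of F. Intervals (95%, exact) and floors (3 counts over the group) cover counting error only. In simulated counts for sorted against parental (13415 genes), 88.4% of genes changed by log2 1 and 100% of those changed by log2 2 were called, with 11 false calls. There 95 tested genes changed at each size, alike in both sorted groups, and each gene had the common coefficient of variation. In the data 69.6% of tested genes were called and the CT1BA5 pair spread more, so these rates may not hold.

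Full values were given for tested members with a mean of at least 10 CPM in a group and a call in at least 1 comparison, and other members are given by name with fewer values; each list's 4 members with the smallest p were named. The results of 1 member are not reported here. The genes and lists were chosen with earlier results of these data known. Exons of members overlap those of other genes by position. The most abundant overlapping gene other than Mettl7b (78 counts, 9 shared bases with Itga7) reached 15 counts in a library (Gm42957, with Itga10). On the same strand, Itgam shares 3450 of 5024 exon bases with Gm49368 (0 counts) and Itga10 1739 of 5186 with Gm42957. How reads in shared bases were counted is not known, so the levels of Itgam and Itga10 may read too low. Alternatives were other scalings, filters and tools (limma 3.58.1, DESeq2 1.42.0), a replicate block, and leaving out each library.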

Additional observations from a re-analysis of the deposited data

Results flagged for a closer look

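The difference from parental cells itself differed between the BMFA3 and CT1BA5 groups for 22 of the 27 tested members, by the edgeR test of CT1BA5 against BMFA3 cells, in which the shared parental libraries cancel. In that comparison 50.8% of all tested genes were called. Among those given here, the difference (log2, CT1BA5 minus BMFA3) was positive for Itga2 at 0.93, Itga5 at 1.33, Itga9 at 1.01, Itga11 at 3.11, Itgav at 0.38, Itgb1 at 0.30, Itgb3 at 1.46, Itgb5 at 1.19 and Lamb3 at 8.56. It was negative for Itga1 at -1.05, Itga3 at -0.58, Itga6 at -0.42, Itga7 at -1.21, Itga10 at -1.41, Itgb4 at -0.34, Itgb8 at -5.40, Lama2 at -0.70, Lama4 at -3.78, Lama5 at -1.17, Lamb2 at -0.63 and Lamc1 at -0.51. The fitted sizes for Lamb3 and Itgb8 depend on the prior count, since a group holds 0 and 2 counts; bounds and ratios are in the results. The calls of Itga9, Itga10, Itgb4 and Lama2 are each lost when some single sorted library is left out, with adjusted p of 0.0501 to 0.342. The size for Itga10 rests on single libraries, at -0.70 without CT1BA5 replicate 1 and -2.51 without CT1BA5 replicate 2, as does that for Itgb8, at -8.64 and -4.60. Summed pericyte and stellate markers were also higher in CT1BA5 (136 to 161 CPM) than in BMFA3 libraries (94.5 to 96.9 CPM). Of the 5 tested, only Mcam and Cspg4 were called higher in CT1BA5 than in BMFA3 cells by edgeR. Mcam averaged 34.4 CPM in parental, 16 CPM in BMFA3 and 52.8 CPM in CT1BA5 libraries. Cspg4 averaged 0.0649, 0.0305 and 5.06 CPM in the same order. Rgs5, Notch3 and Des were not called between the sorted groups. The part of pericytes and stellate cells in the differences of the members was not tested. Outlying libraries were not looked for, as groups hold 2 or 3.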

How the results depend on the processing

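Over the tested members, comparisons and alternatives, 1586 results kept direction and side of the threshold, 88 lost and 11 gained a call, and 14 turned direction. The counts of members called stayed within 1.5 times of those reported except for changes beyond 2-fold, which gave 6 higher and 8 lower (sorted), 5 and 7 (BMFA3), 5 and 3 (CT1BA5 against BMFA3), with 2370, 1706, 3010 (CT1BA5 against parental) and 875 of all genes. Scaling by library size alone shifts the median gene by -0.155 (sorted), -0.077 (BMFA3), -0.234 (CT1BA5) and -0.157 (CT1BA5 against BMFA3). Under it the members' medians were -0.83 (sorted), -0.78 (CT1BA5) and -0.49 (CT1BA5 against BMFA3), Itga7 turned to -0.026 and Lama2 to -0.15 (sorted), and Lamb1 to -0.0094 (CT1BA5 against BMFA3). With limma-voom the sorted median was -0.33 and Lama2 turned to -0.0022. Leaving out 1 library gave medians of -0.77 to -0.46 (sorted), -0.26 to -0.090 (BMFA3), -0.80 to -0.47 (CT1BA5) and -0.34 to -0.15 (CT1BA5 against BMFA3). Directions turned when a library was left out for Lama2 (sorted, -0.11 to 0.21), Itga2b (BMFA3, -0.24 to 0.13), Itgb2 (-0.32 to 0.15) and Itga4 (-1.53 to 0.10), the latter both for CT1BA5 against BMFA3. The results of these 4 genes had not been called.

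Deviations from the group mean in same-numbered libraries correlated at r of -0.17 to -0.0642 with parental and 0.115 between the sorted groups. In a group of 2 these deviations mirror each other, so the values cannot decide whether the numbers pair libraries. The numbers were treated as sample names. A replicate block gave 8 higher and 14 lower members (sorted) and turned Itga2b in BMFA3 cells to 0.079. With the longest transcript as length, in parental, BMFA3 and CT1BA5 cells, the share of Lama5 was 81.9%, 61.7% and 80.9%, of Lamb2 62.9%, 19.7% and 12.3%, of Itga5 13.4%, 49.2% and 75.0%, and of laminin-binding alpha chains 54.7%, 34.1% and 11.6%. The causes were not tested.

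Genes near the floor (Itga11, Itgb8, Lamb3, Lamc3) carry wide intervals. Groups of 2 borrow their spread from all libraries, and where a library was left out the lone sample is assumed to vary like the other groups.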

Other observations

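Some related adaptor genes, picked after their values were seen, had log2 fold changes of opposite sign when both sorted groups were averaged. Talin couples integrin tails to actin. Tln1 read 509 ± 29.6 CPM in parental, 413 ± 3.23 CPM in BMFA3 and 325 ± 34.5 CPM in CT1BA5 libraries and Tln2 8.80 ± 0.824 CPM in parental, 16.4 ± 1.67 CPM in BMFA3 and 58.6 ± 11.8 CPM in CT1BA5 libraries, with log2 fold changes over both sorted groups of -0.47 ± 0.059 (SE, adjusted p = 6.69e-07) and 1.83 ± 0.12 (SE, adjusted p = 5.4e-11) by edgeR. The parvins, partners of integrin-linked kinase, showed a like split. Parva read 458 ± 24.8 CPM in parental, 419 ± 1.82 CPM in BMFA3 and 293 ± 8.56 CPM in CT1BA5 libraries and Parvb 0.857 ± 0.275 CPM in parental, 3.77 ± 0.943 CPM in BMFA3 and 10.3 ± 1.05 CPM in CT1BA5 libraries, with -0.38 ± 0.053 (SE, adjusted p = 2.72e-06) and 2.93 ± 0.27 (SE, adjusted p = 6.53e-09) by edgeR. Tns1 was higher at 0.56 ± 0.074 (SE, adjusted p = 1.2e-06) and Tns2 lower at -1.30 ± 0.070 (SE, adjusted p = 2.32e-12), both tensins, which bind beta chain tails. Actn1, an alpha-actinin, was higher at 0.63 ± 0.054 (SE, adjusted p = 2.56e-09) and Actn4 lower at -0.18 ± 0.053 (SE, adjusted p = 0.00615) by edgeR. In BMFA3 cells alone the lower member was not called for Parva, at -0.13 ± 0.064 (SE, adjusted p = 0.0973), or Actn4, at -0.13 ± 0.063 (SE, adjusted p = 0.0858), by edgeR. Lims1 and Lims2, the PINCH adaptors, were both lower, at -0.38 ± 0.055 (SE, adjusted p = 4.7e-06) and -1.82 ± 0.17 (SE, adjusted p = 6.83e-09) by edgeR.

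Of the basement membrane and laminin-binding list, 3 more genes are given that were also picked after their values were seen. These 3, like Dag1 and Bcam, were lower, while 6 genes of the list were called higher over both sorted groups. Besides Col18a1 these were Col7a1 at 2.93 ± 0.31 (SE), Pxdn at 1.23 ± 0.074, Fbln2 at 0.89 ± 0.054, Ntn4 at 0.85 ± 0.090 and Fbln1 at 0.83 ± 0.15. Nid1 was higher in BMFA3 cells at 0.68 ± 0.090 and lower in CT1BA5 cells at -0.53 ± 0.093. Plec, which encodes plectin, read 333 ± 41.2 CPM in parental, 204 ± 0.701 CPM in BMFA3 and 208 ± 33.2 CPM in CT1BA5 libraries and changed by -0.69 ± 0.077 (SE, adjusted p = 1.34e-07). Dst, which encodes dystonin, read 91.8 ± 7.63 CPM in parental, 76.2 ± 0.986 CPM in BMFA3 and 44.5 ± 8.93 CPM in CT1BA5 libraries and changed by -0.66 ± 0.078 (SE, adjusted p = 3.22e-07). Cd151, a tetraspanin partner of laminin-binding integrins, read 613 ± 5.87 CPM in parental, 458 ± 7.04 CPM in BMFA3 and 439 ± 9.73 CPM in CT1BA5 libraries and changed by -0.45 ± 0.049 (SE, adjusted p = 9.86e-08) by edgeR.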
